A study of Mus musculus with 4 samples.

Results

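The genes of the tumour necrosis factor (TNF) superfamily, its ligands and its receptors, were examined in a STARR-seq survey of mouse T helper 17 (Th17) cells. An element belonged to the family when the protein-coding transcription start site (TSS) closest to its centre, within 100 kb, was that of a gene named Tnfsf or Tnfrsf, or of Tnf, Lta, Ltb, Ltbr, Fas, Fasl, Cd40, Cd40lg, Cd27 or Cd70. The rule uses no measured activity. It found 71 of the 24217 elements listed on chromosomes (24232 on all sequences), at 32 of the 42 family genes in the annotation, 12 of them ligand genes and 20 receptor genes.

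In STARR-seq each genomic fragment is cloned where the reporter transcribes it, and its RNA relative to the input plasmid reads its own enhancer activity. The 4 samples are biological replicates of 1 group, primary T cells of mouse strain C57BL/6NJ activated towards the Th17 fate and carrying the library as an episome after transient transfection. All received for 3 days antibodies to CD3e (0.25 µg/mL), CD28 (1 µg/mL), interleukin-4 (2 µg/mL) and interferon-gamma, together with interleukin-6; the labels do not say whether the replicates were separate cultures and give them 1 donor label. The authors' deposited table combines the replicates into 1 log2 fold change, p-value and q-value per element. No spread between replicates and no depth can therefore be given, and the assay gives no marker levels by which to check the cell type. The direction of the fold change is not stated; it was taken as reporter RNA over input, and a positive value is called higher and a negative one lower. With the opposite direction, higher and lower would change places throughout. Every listed element has a q-value under 0.01, and by the q-values the table holds 21.1% of 114722 tested elements; the other 90490 are not used here. A fragment on a plasmid is read outside its chromosome, and the link to the nearest TSS names a gene without showing that the element acts on it.

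TNF ligands are mostly trimeric membrane proteins that can be shed, and they cluster receptors with cysteine-rich outer domains. Receptors with a death domain can recruit FADD and caspase-8 to start apoptosis, and the others bind TRAF adaptors, which lead to NF-kB and MAP kinase signalling. On T cells several of the receptors, OX40, CD137, CD30, GITR and CD27 among them, are costimulators that prolong the response to antigen.

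Elements with high and low log2 fold changes are shown first, as the central 300 bases of each (plus strand, mm10). They are 3 of the 4 highest distal elements, the 2 lowest distal ones, the lowest promoter-proximal element, and the highest element at Lta and Ltb. Of the promoter-proximal one only the 229 bases of the window upstream of the TSS are printed. The second highest, linked to Tnfrsf22, is not shown because it lies in an annotated untranslated exon. An element at Tnfrsf4 and a further one at Tnfsf8 were added after their values were seen. The first was chosen for AP-1 and IRF matches in the same window, though not side by side, and the second for its overlapping NF-kB matches. Capitals mark matches, on either strand, to the consensus sequences of AP-1 (TGANTCA), CRE (TGACGTCA), NF-kB, STAT (TTCNNNGAA), IRF (2 copies of GAAA, 2 bases apart), RUNX (TGTGGT), ETS (CCGGAAG) and CTCF, whose matches may overlap each other.
Tnfrsf17, 19912 bp upstream, chr16:11293751-11294050: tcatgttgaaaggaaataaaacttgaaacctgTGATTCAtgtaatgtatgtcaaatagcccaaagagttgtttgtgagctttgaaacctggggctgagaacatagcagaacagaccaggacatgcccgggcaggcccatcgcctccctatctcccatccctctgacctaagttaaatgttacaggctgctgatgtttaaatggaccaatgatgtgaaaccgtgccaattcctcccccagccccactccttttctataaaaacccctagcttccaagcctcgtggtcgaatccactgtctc
Tnfsf8, 18947 bp downstream, chr4:63842251-63842550: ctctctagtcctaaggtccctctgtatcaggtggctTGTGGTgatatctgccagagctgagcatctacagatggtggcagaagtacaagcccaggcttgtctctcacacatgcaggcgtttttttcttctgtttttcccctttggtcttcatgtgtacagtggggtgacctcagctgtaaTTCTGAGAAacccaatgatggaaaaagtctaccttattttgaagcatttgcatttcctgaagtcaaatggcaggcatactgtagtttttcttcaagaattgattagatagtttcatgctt
Tnfsf11, 76607 bp upstream, chr14:78384501-78384800: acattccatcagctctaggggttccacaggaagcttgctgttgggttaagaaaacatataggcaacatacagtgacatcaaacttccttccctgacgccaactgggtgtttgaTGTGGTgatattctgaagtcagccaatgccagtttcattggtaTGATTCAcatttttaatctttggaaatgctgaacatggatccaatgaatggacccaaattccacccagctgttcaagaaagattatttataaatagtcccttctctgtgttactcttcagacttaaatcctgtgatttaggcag
Tnfrsf9, 16766 bp downstream, chr4:150946414-150946713: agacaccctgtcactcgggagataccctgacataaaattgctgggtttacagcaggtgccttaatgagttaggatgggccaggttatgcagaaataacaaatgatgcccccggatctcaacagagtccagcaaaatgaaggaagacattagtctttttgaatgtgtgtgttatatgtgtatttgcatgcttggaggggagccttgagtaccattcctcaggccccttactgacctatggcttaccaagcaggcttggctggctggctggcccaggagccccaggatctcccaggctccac
Tnfsf10, 5640 bp upstream, chr3:27311239-27311538: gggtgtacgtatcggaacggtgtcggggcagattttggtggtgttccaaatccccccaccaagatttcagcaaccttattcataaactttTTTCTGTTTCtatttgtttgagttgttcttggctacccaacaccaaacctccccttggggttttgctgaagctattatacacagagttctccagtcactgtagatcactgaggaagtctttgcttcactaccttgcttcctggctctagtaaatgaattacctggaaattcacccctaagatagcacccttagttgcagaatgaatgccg
Tnfrsf11a, 80 bp upstream, chr1:105780489-105780717: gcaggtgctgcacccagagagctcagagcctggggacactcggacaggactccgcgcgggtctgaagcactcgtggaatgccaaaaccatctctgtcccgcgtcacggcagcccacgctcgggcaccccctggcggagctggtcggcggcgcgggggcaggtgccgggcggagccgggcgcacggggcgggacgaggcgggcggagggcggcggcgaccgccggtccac
Lta, 5024 bp upstream, chr17:35210226-35210525: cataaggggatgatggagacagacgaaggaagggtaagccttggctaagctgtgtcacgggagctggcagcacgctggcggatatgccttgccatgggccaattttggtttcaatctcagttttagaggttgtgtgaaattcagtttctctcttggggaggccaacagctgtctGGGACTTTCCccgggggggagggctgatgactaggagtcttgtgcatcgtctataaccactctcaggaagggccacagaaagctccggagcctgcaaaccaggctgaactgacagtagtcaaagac
Tnfrsf4, 5368 bp upstream, chr4:156008326-156008625: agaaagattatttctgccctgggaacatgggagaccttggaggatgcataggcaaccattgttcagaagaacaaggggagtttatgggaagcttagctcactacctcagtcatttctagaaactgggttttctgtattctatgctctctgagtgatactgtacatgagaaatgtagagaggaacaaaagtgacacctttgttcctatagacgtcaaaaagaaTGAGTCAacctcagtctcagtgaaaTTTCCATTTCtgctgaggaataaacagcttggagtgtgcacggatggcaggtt
Tnfsf8, 74203 bp upstream, chr4:63935401-63935700: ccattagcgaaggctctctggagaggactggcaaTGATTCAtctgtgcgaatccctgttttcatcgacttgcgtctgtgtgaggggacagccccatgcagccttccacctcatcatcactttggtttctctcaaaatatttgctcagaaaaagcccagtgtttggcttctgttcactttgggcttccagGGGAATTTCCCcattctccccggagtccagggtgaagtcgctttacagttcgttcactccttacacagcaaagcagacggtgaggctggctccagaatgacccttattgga

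The Tnfrsf17 and Tnfsf11 sequences each hold TGATTCA, the Tnfsf11 and Tnfsf8 intronic sequences each hold TGTGGT, and the central 300 bp of the Tnfrsf22 element hold the same consensus at 4 places. The Tnfrsf22 element repeats itself in tandem: 83.1% of its bases equal the base 104 positions further on, against at most 40.8% in the other members of at least 300 bp, over shifts of 10 to 150 bp. The Tnfrsf17 sequence lies in an element that is 88.5% repeat-masked. Neither element had a near-identical copy elsewhere in the genome, nor did any other member. The lowest distal sequence, at Tnfrsf9, holds none of the marked consensus sequences, which says only that these letters are not in the window shown. The Tnfrsf11a promoter sequence holds none of them either, but its full 300 bp window has 5 matches to the KLF-SP consensus GGGCGG, which was searched and is not marked in capitals.

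Family elements were more often higher than lower. By the authors' deposited table, 48 of the 71 were higher, which is 67.6% (exact Clopper-Pearson 95% interval 55.5 to 78.2, covering counting error only), against 49.4% of all elements on chromosomes. Their median log2 fold change was 1.04 (95% interval 0.74 to 1.33), against -0.59 (-0.65 to 0.44) for all elements. That difference mostly restates the share of higher elements. Higher family elements had a median of 1.40 against 1.47 for all higher elements, and lower ones -1.11 against -1.33. By gene, 12 genes had higher elements alone, 6 had lower elements alone and 14 had both. Most genes had few elements, with a median of 2 and 13 genes with 1, while 5 genes with 4 or more held 26 of the 71. Elements of 1 locus share their surroundings and are not replicates of each other, and the shares are descriptions with no test of the difference.

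**Figure D1:**
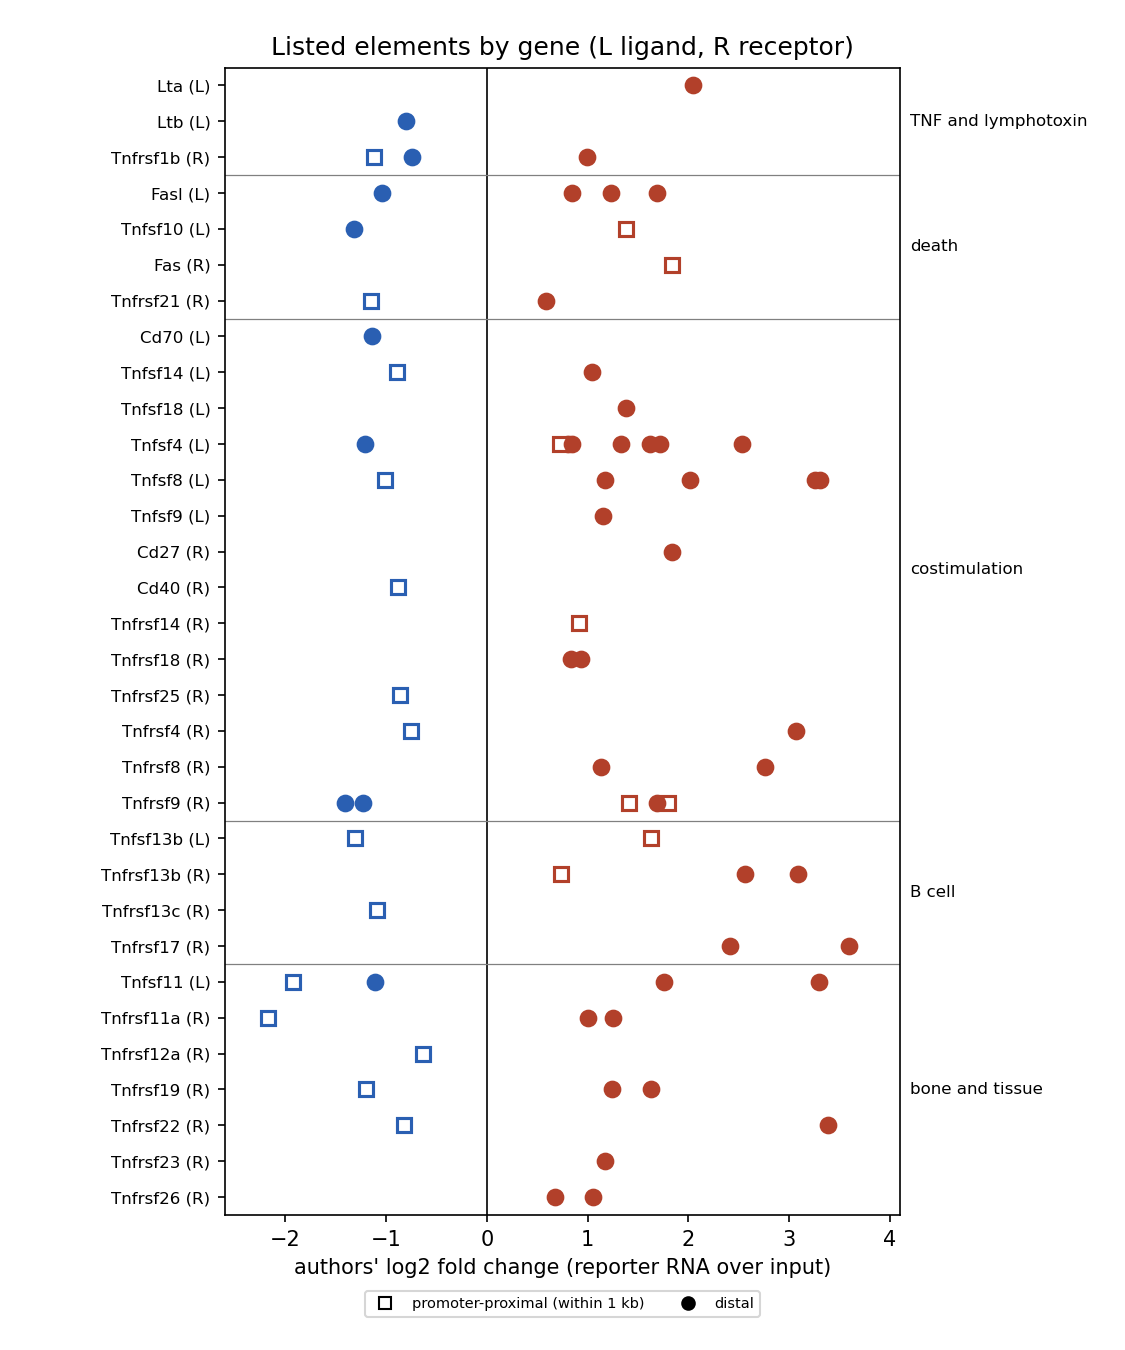
Authors' log2 fold change (x axis, reporter RNA over input) of each of the 71 listed elements, 1 row per gene, grouped by role; open squares are promoter-proximal elements (within 1 kb of a TSS), filled circles distal ones, red positive and blue negative. The values run from -2.17 at the Tnfrsf11a promoter to 3.59 upstream of Tnfrsf17, and the 7 values above 3 are all distal.

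The balance differed between promoters and distal elements, as it did in the whole table. Distal family elements, over 1 kb from the nearest TSS, numbered 49 and 40 were higher (81.6%, 68.0 to 91.2), the median being 1.23 (1.00 to 1.69); of all distal elements 72.7% were higher and the median was 1.16. This share is near the background. Promoter-proximal family elements numbered 22 and 8 were higher (36.4%, 17.2 to 59.3), the median being -0.84, against 13.3% and -1.22 over all promoter-proximal elements. The share for promoters lay above the background by more than its counting interval. Strong distal elements were also counted: 7 of 49 reached a log2 fold change of 3 (14.3%, 5.94 to 27.2), against 6.56% of all distal elements, a difference within the interval.

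Base composition moved with these shares. Promoter-proximal family elements had a median GC content of 56.4% and an observed over expected CpG ratio of 0.366, against 64.6% and 0.781 over all promoter-proximal elements. Among the 22, the higher elements had a median GC of 50.2% and the lower ones 60.5%. None of the 8 family promoters with at least 60% GC was higher (5.15% of all such elements were), 2 of 7 between 55 and 60% were (24.7% of all), and all 3 between 45 and 50% were (73.0% of all). Across the 22 elements log2 fold change and GC had a Pearson correlation of -0.77 and a Spearman correlation of -0.75; across the 49 distal ones these were -0.13 and -0.08. The elements share libraries and depth, so these are descriptions. The part of GC content in the family's share of higher promoters was not tested.

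**Figure D2:**
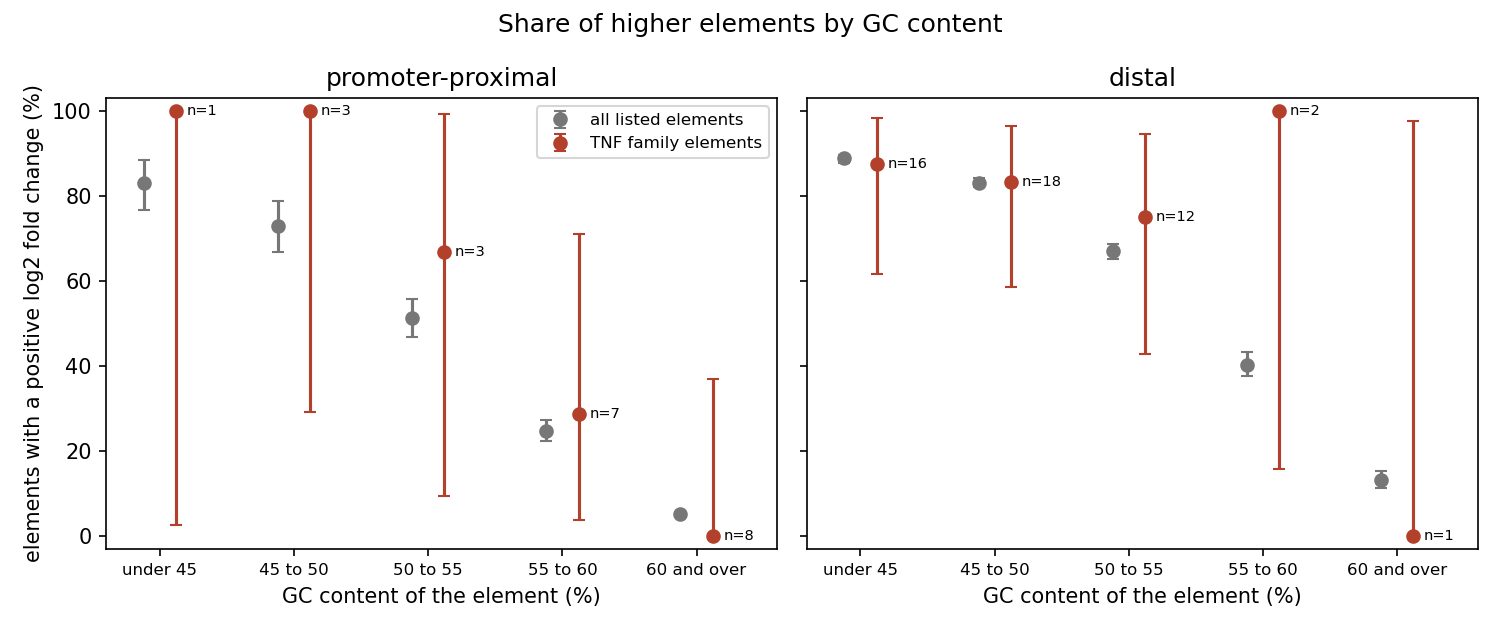
Share of elements with a positive log2 fold change (y axis, %) by GC content of the element (x axis, %), for promoter-proximal (left) and distal (right) elements; red points are family elements with their number, grey points all listed elements, and bars exact 95% binomial intervals. Among promoters both fall with GC, the family elements from 3 of 3 at 45 to 50% to 0 of 8 at 60% and over.

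Among the founding members, TNF and the lymphotoxins, secreted or membrane-bound inflammatory cytokines encoded side by side in the major histocompatibility region, no listed element had Tnf as its nearest gene. The authors' deposited table places a higher element 5024 bp upstream of Lta (chr17:35210176-35210575), with a log2 fold change of 2.05 and a q-value of 6.52e-16. Its centre lies 8368 bp from the Tnf TSS, and its printed sequence holds 1 NF-kB match, GGGACTTTCC, at bases 175 to 184. In a coding exon of Ltb, 1124 bp downstream of the TSS, a lower element had -0.80. Tnfrsf1b, the TNF receptor that lacks a death domain, had -1.12 at the promoter (207 bp downstream), -0.74 in an intron and 0.99 at 7755 bp upstream. Tnfrsf1a and Ltbr, the receptors of TNF and of lymphotoxin beta, had no listed element. Thus 2 of the 5 elements of this group were higher (40%, 5.27 to 85.3, against 49.4% of all elements). Both were among its 4 distal elements (50%, 6.76 to 93.2, against 72.7% of all distal elements). Both intervals include the background.

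Among the death-inducing members the promoters of Fas and Tnfsf10 were higher. In the authors' deposited table the Fas promoter element, centred 228 bp upstream of the TSS (chr19:34290101-34290775), had a log2 fold change of 1.84 with a q-value of 6.83e-12; Fas is the receptor through which Fas ligand triggers apoptosis. The promoter of Tnfsf10, which encodes TRAIL, another death ligand, had 1.38 (39 bp downstream), while an element 5640 bp upstream of it had -1.32. Around Fasl, the gene for Fas ligand, no promoter element was listed, and 4 distal elements had 1.69 (21220 bp downstream), 1.23 (83045 bp downstream), 0.84 (53420 bp downstream) and -1.04 (16143 bp upstream). Tnfrsf21, a receptor with a death domain, had -1.15 at its promoter and 0.59 at 26292 bp upstream. In all, 6 of 9 elements of the group were higher (66.7%, 29.9 to 92.5, against 49.4% of all elements), with a median of 0.84.

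The costimulatory ligands and receptors held the most elements, 33, of which 24 were higher (72.7%, 54.5 to 86.7, against 49.4% of all elements). Their median was 1.13. Of their 24 distal elements 20 were higher (83.3%, 62.6 to 95.3, near the 72.7% of all distal elements), and of their 9 promoter-proximal ones 4 (44.4%, 13.7 to 78.8, against 13.3%). Ligand genes of the group had 14 higher of 18 (77.8%, 52.4 to 93.6). Receptor genes had 10 of 15 (66.7%, 38.4 to 88.2), both beside the 49.4% of all elements.

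Tnfsf4, the gene for OX40 ligand, had the most elements of the family, 8 over both sides of its TSS. By the authors' deposited table, 7 were higher: 2.53 at 41909 bp upstream, 1.72 and 1.62 in introns at 1204 and 11179 bp downstream, 1.33 at 67809 bp upstream, 0.84 at 41341 bp downstream, 0.80 at 16384 bp upstream and 0.73 at the promoter. The lower one, -1.21, lay 55084 bp upstream, between 2 higher elements. Its receptor gene Tnfrsf4 (OX40) showed the opposite signs at close range: the promoter element, 57 bp downstream of the TSS, had -0.75, and an element 5368 bp upstream had 3.07 with a q-value of 6.51e-19. That upstream element (chr4:156008101-156008850) lies in an intron of Sdf4 and 35 bp from a TSS of that gene's annotated transcripts, one that was not among the protein-coding TSSs used for the rule. Its printed sequence has the AP-1 match TGAGTCA at bases 223 to 229 and an IRF match at bases 248 to 257.

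Tnfsf8, which encodes CD30 ligand, had 2 of the 5 highest family elements. Beside the intronic one (3.31), the authors' deposited table gives 3.26 with a q-value of 9.19e-19 for an element 74203 bp upstream (chr4:63935376-63935725), 2.02 for a neighbour 78278 bp upstream and 1.17 at 44891 bp upstream. The promoter element of the same gene had -1.01. The 74203 bp element holds TGATTCA at bases 35 to 41 of its printed sequence and overlapping NF-kB matches at bases 190 to 200. Its receptor gene Tnfrsf8 (CD30) had 2.76 at 38816 bp upstream and 1.13 in an intron 4047 bp downstream, with no promoter element listed.

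Tnfrsf9, encoding CD137, a costimulatory receptor induced on activated T cells, had 3 higher and 2 lower elements. From its 5′ end on, the authors' deposited table gives 1.80, 1.69 and 1.41 at 938, 3026 and 13326 bp, then -1.23 and -1.41 at 25713 and 32001 bp. The third of these is centred 30 bp upstream of an internal TSS of the gene and holds AP-1, NF-kB, STAT and RUNX matches in its central 300 bp; the first 2 each hold AP-1, NFAT and RUNX matches, and the last 2, the second of them past the gene in an intron of Camta1, hold none of those searched. The gene for its ligand, Tnfsf9, had 1 element, 1.15 at 3650 bp downstream. Tnfrsf18 (GITR) had 0.93 and 0.83 at 3989 bp upstream and 4546 bp downstream, both with an NF-kB match, and its ligand's gene Tnfsf18 had 1.38 at 16192 bp upstream.

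The remaining costimulatory genes had 1 or 2 elements each in the authors' deposited table. Cd27, the gene of a costimulatory receptor on T cells, had 1.84 at 15915 bp upstream. The gene of its ligand, Cd70, had -1.14 at 17789 bp downstream. Tnfsf14, which encodes LIGHT, had -0.89 at its promoter and 1.04 at 4286 bp upstream, and the promoter of its receptor gene Tnfrsf14 (HVEM) had 0.91. The promoters of Cd40, the receptor that licenses antigen-presenting cells, and of Tnfrsf25 (DR3) were lower, at -0.88 and -0.86. No element was listed for Cd40lg or for Tnfsf15, the DR3 ligand gene.

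**Figure D3:**
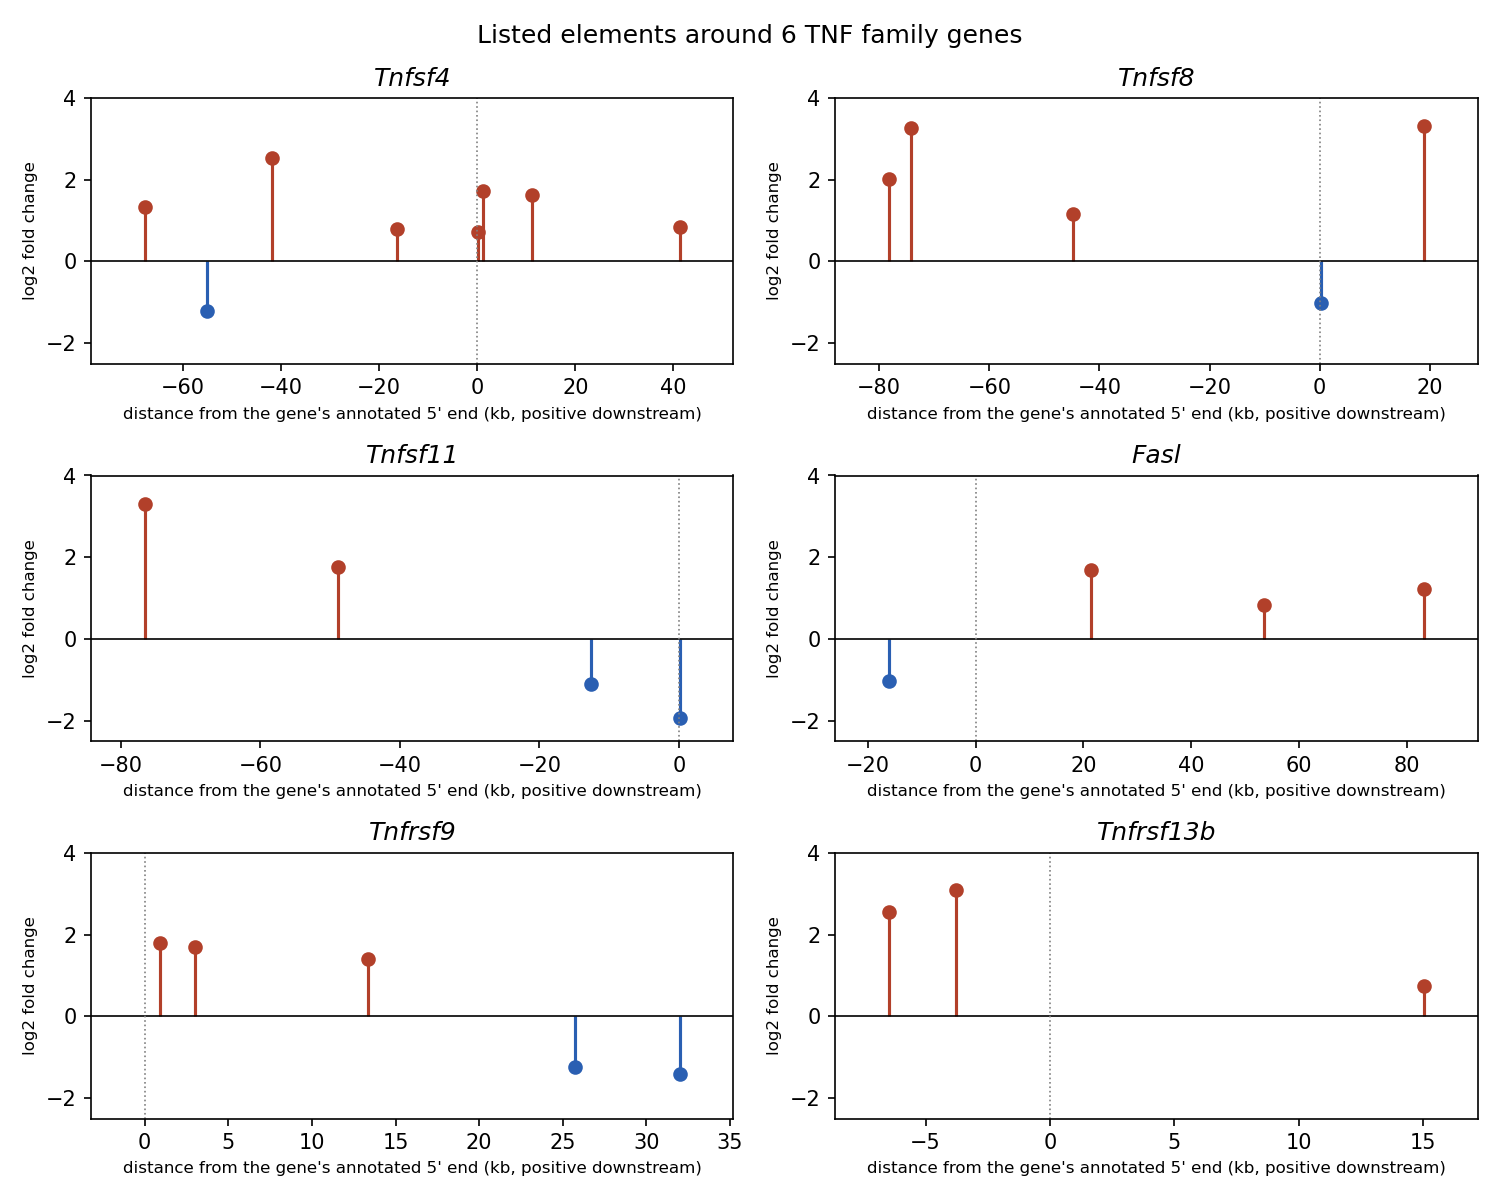
Authors' log2 fold change (y axis) of each listed element against the distance of its centre from the gene's annotated 5′ end (x axis, kb, positive downstream) at 6 genes; red stems are positive and blue stems negative. Tnfsf4 and Tnfsf8 have higher elements on both sides of the start, and Tnfrsf9 has 3 higher elements followed downstream by 2 lower ones.

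B cell survival genes, whose receptors are known mainly from B and plasma cells, held some of the highest values in these T cells. In the authors' deposited table the elements upstream of Tnfrsf17 (BCMA) had 3.59 (19912 bp) and 2.41 (27774 bp), and those upstream of Tnfrsf13b (TACI) had 3.09 (3755 bp, q-value 1.25e-19) and 2.56 (6480 bp). The 4 distal elements of this group were all higher, with a median of 2.82, against 72.7% and 1.16 over all distal elements; with 4 elements the interval of the share reaches down to 39.8%. Of its promoters, Tnfsf13b (BAFF) had 1.63 over the TSS and -1.31 in a 50 bp element 696 bp downstream, an internal TSS of Tnfrsf13b had 0.74, and Tnfrsf13c, the BAFF receptor gene, had -1.09. Tnfsf13 and the adjoining Tnfsf12 and Tnfsfm13 had no listed element.

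The last group held genes of bone and other tissues, and Tnfrsf22, Tnfrsf23 and Tnfrsf26 were placed in it too. In it 10 of 11 distal elements were higher (90.9%, 58.7 to 99.8) and 0 of 5 promoter-proximal ones (up to 52.2% by the exact interval). Both intervals include the shares over all elements of the class, 72.7% and 13.3%. Those 3 genes supplied 4 of the 10 higher distal elements, so the group's shares depend on where they are placed. Tnfsf11 encodes RANKL, the cytokine that drives osteoclast formation and is also made by activated T cells. In the authors' deposited table its promoter had -1.93, and the elements upstream had -1.11 (12570 bp), 1.76 (48832 bp) and 3.30 (76607 bp). Its receptor gene Tnfrsf11a (RANK) had the lowest value of the family, -2.17, at the promoter, with 1.25 in an intron of Relch and 1.00 at 99607 bp downstream. Tnfrsf22, a decoy receptor gene for TRAIL, had 3.39 at 17389 bp upstream and -0.82 at its promoter. The higher of these lies within the span of the neighbouring gene Tnfrsf23, in the untranslated last exon of a transcript annotated as subject to nonsense-mediated decay. Tnfrsf23 itself had 1.17 in an intron of Osbpl5, and Tnfrsf26 had 0.68 and 1.05. The promoters of Tnfrsf12a (the TWEAK receptor) and Tnfrsf19 had -0.63 and -1.20, and Tnfrsf19 had distal values of 1.63 and 1.24. Tnfrsf10b and Tnfrsf11b had no listed element.

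The 100 kb limit of the rule cuts through the Tnfrsf19 region. Just inside it were elements of Tnfrsf19 at 90628 bp (1.24) and Tnfrsf11a at 99607 bp (1.00); just outside, the authors' deposited table has elements of Tnfrsf19 at 100128 bp (3.46, q-value 1.14e-17) and 102078 bp (2.39), and of Tnfsf11 at 101032 bp (0.68).

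Ligand and receptor genes had like shares in the authors' deposited table. Higher were 22 of 32 ligand elements (68.8%, 50 to 83.9, median 1.16) and 26 of 39 receptor elements (66.7%, 49.8 to 80.9, median 0.99). The intervals overlap over most of their length, and both start near the 49.4% of all elements. Many family genes lie next to each other. Genes with an element were also grouped when within 500 kb of each other, a grouping made after values were seen. Here 15 genes formed 6 clusters with 33 elements, of which 24 were higher. Over all elements 49.4% were higher, and over all distal elements 72.7%. The Tnfsf4, Tnfsf18 and Fasl cluster on chromosome 1 had 11 of 13 higher, the Tnfrsf26, Tnfrsf22 and Tnfrsf23 cluster on chromosome 7 had 4 of 5, and the Tnfrsf4 and Tnfrsf18 pair on chromosome 4 had 3 of 4. In the Tnfsf9, Cd70 and Tnfsf14 cluster on chromosome 17, 2 of 4 were higher. The Tnfrsf1b and Tnfrsf8 pair on chromosome 4 had 3 of 5, and the Ltb and Lta pair on chromosome 17 had 1 of 2.

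Consensus matches were searched, on both strands, in the 300 bp around each centre. Of the 49 distal family elements 27 held the AP-1 consensus TGANTCA (55.1%, 40.2 to 69.3), against 38.9% of all distal windows. For the stricter form TGAGTCA, added after the data were seen, it was 23 of 49 (46.9%, 32.5 to 61.7) against 31.3%. The NFAT consensus TGGAAA was matched in 42.9% against 29.3% of all distal windows, RUNX in 34.7% against 28.6%, IRF in 16.3% against 10.5% and STAT in 16.3% against 15.5%. The GATA factor consensus, which is AGATAA, was matched in 14.3% against 12.3% and NF-kB in 10.2% against 9.66%. KLF-SP (GGGCGG) was matched in 6.12% against 11.9%, and ETS, CTCF, CRE and ROR in no distal family window, against 2.28, 1.74, 1.16 and 1.02% of all distal windows. The intervals of both AP-1 shares lie just above the background, and those of the other 11 consensus sequences include it in these windows. Over whole elements, which are longer, NFAT (55.1%, 40.2 to 69.3, against 37.2%) and RUNX (53.1%, 38.3 to 67.5, against 38%) also lay above the background. Every TGAGTCA match is also a TGANTCA match, so the 2 AP-1 shares are not separate observations. Among higher distal elements alone, TGANTCA was in 65% of the 300 bp windows (48.3 to 79.4, against 47.8%). TGAGTCA was in 55% of them (38.5 to 70.7, against 38.6%), an interval that includes the background. A match is a description of the letters, not a bound site.

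**Figure D4:**
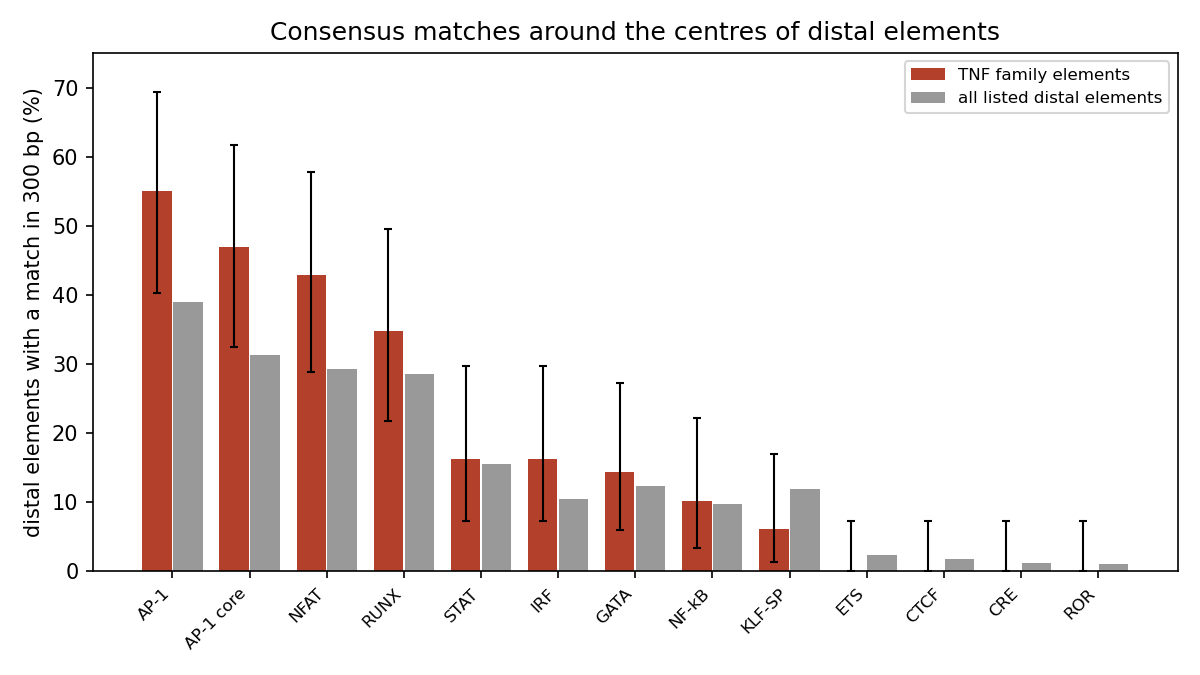
Share of distal elements with at least 1 consensus match in the 300 bp around the centre (y axis, %), for the 49 family elements (red, with exact 95% binomial intervals) and all 14704 listed distal elements (grey). For AP-1 (55.1 against 38.9%) and its core form (46.9 against 31.3%) the interval lies above the grey bar.

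Distal family elements with an AP-1 match were higher in 26 of 27 cases (96.3%), and those without in 14 of 22 (63.6%); in all distal elements of the authors' deposited table the shares were 89.4% and 62.1%. The exception was the Cd70 element. AP-1 core and IRF matches stood together in 5 of the 49 windows (10.2%, 3.4 to 22.2), against 2.43% of all distal windows. They lay at Tnfrsf4, Tnfsf4, Fasl, Tnfrsf17 and Tnfsf9. All 5 were higher, as were 342 of the 358 distal elements with both matches in the whole set, so this is near the background. The pair was chosen after values were seen. The 5 distal elements with an NF-kB match, at Lta, Tnfrsf18 (both), Tnfrsf21 and Tnfsf8, were also all higher, against 82.1% of all such distal elements. Promoter-proximal family windows held KLF-SP in 40.9%, against 69.6% of all promoter-proximal windows. AP-1 was matched in 4 of 22 (18.2%, 5.19 to 40.3, against 4.82%) and STAT in 4 (18.2%, 5.19 to 40.3, against 4.42%). RUNX was matched in 6 (27.3%, 10.7 to 50.2, against 9.9%) and GATA in 3 (13.6%, 2.91 to 34.9, against 2.62%). Each interval starts just above the background. Both promoter-proximal elements of Tnfrsf9 count among the AP-1, STAT and RUNX matches. Median GC was 56.4% in these family elements and 64.6% in all promoter-proximal ones, and its part in these shares was not tested.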

How the data were processed

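The 4 STARR-seq replicates are described by 1 table of elements on mm10, made by the authors from all replicates' alignments, per the file headers; aligner, caller and input library: not given in the sources used here. Each deposited log2 fold change, p-value and q-value is the authors' own, and the deposited length in bp equals the element's span. Starts count from 1. A Benjamini-Hochberg adjustment over 114722 tests gives back every q-value (relative tolerance 1e-06). Depth is unknown.

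Elements were linked by their centre to the nearest protein-coding TSS of GENCODE release M21 on GRCm38 within 100 kb and called promoter-proximal within 1 kb. Positions are given from the nearest TSS unless stated. GC, repeat-masked bases and consensus matches (300 bp around the centre) came from the sequence, and copies from minimap2 2.31-r1302 (at least 95% identity over 90% of the element). Shares have exact binomial intervals and medians order-statistic intervals, at 95%, from scipy 1.17.1; the calculations were tested on simulated data. No test was run, since the table holds 1 value per element. The family, the gene lists and the consensus sequences were chosen with earlier results of these data known. All 32 genes with an element are named, with the element of smallest p-value in each, every element of genes with up to 3, and the 10 highest and 10 lowest elements. Alternatives changed the link, the TSS set, the q-value and effect limits, the counting unit, the class boundary and the motif window.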

Additional observations from a re-analysis of the deposited data

How the results depend on the processing

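Of 72 values recomputed under alternative settings, 64 stayed within the counting interval of the reported value, or within 1.5 times a reported count, and none reversed. Some of these could not move: leaving out elements with copies, or merging elements within 100 bp, left the same 71. With TSSs of all gene types 50 elements remained, of which 66% were higher. With a q-value under 0.001, 80.4% of family elements were higher (54.4% of all elements), 84.6% of ligand elements and, in an alternative added after seeing the data, 95% of distal ones (84.9% of all distal). Among elements whose log2 fold change was 1 or more in size, the family median was 1.38. With 1 element per gene there were 32 family elements, 12 ligand and 20 receptor. A link within 20 kb left 20 ligand elements. Leaving out a replicate could not be done, because the table gives 1 value over all replicates. No paired analysis was possible because the result comes from no test and there is 1 group. Unknown depth limits what an unlisted gene means: such a gene may have had elements that were tested and did not pass.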

Other observations

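A list of genes of the TNF receptor pathway, its inhibitors and the shedding enzyme gene Adam17 included, was set beside the family. Of 27 such genes 22 had a listed element, 75 in all, and 41 were higher in the authors' deposited table (54.7%, exact 95% interval 42.7 to 66.2; median 0.73), beside 49.4% of all elements. Distal ones were higher in 35 of 51 cases (68.6%, near the 72.7% of all distal elements) and promoter-proximal ones in 6 of 24 (25%, 9.77 to 46.7, against 13.3%). Tnfaip3, which encodes the NF-kB inhibitor A20, had the most elements, 13, of which 10 were higher, up to 3.70 at 52918 bp upstream. Birc3, the gene for the ubiquitin ligase cIAP2, had its highest element at the promoter itself, 3.60 with a q-value of 1.22e-21, 33 bp downstream of the TSS. Map3k7, which encodes the kinase TAK1, had 3.64 at 22297 bp upstream. Cflar, the gene for the caspase-8 inhibitor c-FLIP, and Rbck1, a component of the linear ubiquitin ligase, each had 2.47 in an intron. With each gene taken at its element of smallest p-value in the authors' deposited table, the 5 lowest lay at promoters: Map3k5 -2.99, Tab3 -2.45, Traf3 -2.21, Edaradd -1.94 and Traf4 -1.69. A distal element of Traf5, which is not that gene's element of smallest p-value, was lower than all of these but the first, at -2.79. Ripk1, Birc2, Tab1, Sharpin and Adam17 had no listed element.

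Of 5 family members with other names, Ngfr and Relt each had 1 lower promoter element, at -2.90 and -1.77 in the authors' deposited table. Eda, Edar and Eda2r had no listed element.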
